A study of Mus musculus with 8 samples.

Results

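The mitochondrial ribosomal protein genes were taken as the protein-coding genes of the count table whose symbol starts with Mrpl or Mrps followed by a digit, with pseudogenes left out. The rule found 78 of 53700 genes, 49 named Mrpl and 29 named Mrps, and used no measured value. The data are RNA-Seq counts from Lewis lung carcinoma (LLC) cells, a mouse lung tumor line. WT and FIH-KO cells were kept for 16 hours in normoxia (21% O2) or in hypoxia (1% O2). Each of these 4 groups has 2 libraries, 8 altogether, made from stranded, poly(A)-selected RNA. FIH-KO cells carry a CRISPR/Cas9 lesion aimed at exon 2 of Hif1an, the mouse gene for FIH, an asparaginyl hydroxylase that restrains the hypoxia-inducible factor (HIF). They were cloned by single-cell dilution, and the number of clones behind the RNA-Seq is not given in the sources used here, so a difference between genotypes may also be one between clones. No source states that the 2 libraries of a group came from separate cultures, so the p values measure the spread between these libraries, which may be technical.

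The mitochondrial ribosome sits in the mitochondrial matrix and translates the mRNAs encoded by mitochondrial DNA, which specify core subunits of the respiratory chain and of the ATP synthase. Its rRNAs come from mitochondrial DNA, whereas its proteins are encoded in the nucleus, made in the cytosol and imported. Some of these proteins have counterparts in bacterial ribosomes and others are found only in mitochondria. Names are by origin and not always by place, since Mrps18a and Mrps30 belong to the large subunit. Mrps36 is now known as a subunit of the 2-oxoglutarate dehydrogenase complex and is kept here only because its name meets the rule.

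Library totals ran from 14519731 to 18177016 counts, and 13933 genes passed edgeR's filter on low counts and were tested. Hif1an (ENSMUSG00000036450.5) was examined first. It measured 84.6 and 82.3 CPM (counts scaled to library size) in WT normoxia, 90.2 and 84.0 in WT hypoxia, 34.8 and 37.7 in FIH-KO normoxia, and 45.5 and 51.0 in FIH-KO hypoxia, so the genotypes did not overlap. FIH-KO over WT, the log2 fold change was -1.20 (adjusted p = 3.1e-05) at 21% O2 and -0.85 (adjusted p = 0.00031) at 1% O2. Of 8 HIF target genes, 8 rose in hypoxia in WT cells and 7 in FIH-KO cells. The epithelial keratin Krt8 and the mesenchymal filament gene Vim were expressed in every library, whereas Epcam was at 0 in all 8 and Cdh1 near 0. Summed over 6 epithelial markers, the level was 325.7 to 351.6 CPM in WT normoxia, 225.6 to 283.1 in WT hypoxia, 436.4 to 538.4 in FIH-KO normoxia and 333.7 to 446.7 in FIH-KO hypoxia. Leukocyte markers summed to at most 3.14 CPM, with Cd3e and Adgre1 at 0, and endothelial markers to at most 2.24 CPM. Summed over 5 mesenchymal markers, of which Vim made up most, the level was 3407 to 4007 CPM in WT normoxia, 3213 to 3630 in WT hypoxia, 5239 to 5334 in FIH-KO normoxia and 4715 to 5450 in FIH-KO hypoxia. Of 3 epithelial markers tested, Krt8 rose in FIH-KO cells, by 1.02 (log2) at 21% O2 and 1.00 at 1% O2, whereas Krt18 (-0.05 and 0.12) and Krt19 (-0.05 and 0.49) did not pass. Of 4 mesenchymal markers tested, Vim rose by 0.52 and 0.58, Pdgfra had -0.61 (adjusted p = 0.10) and fell by 0.87 at 1% O2 (adjusted p = 0.032), and Col1a1 (0.99 and 1.31) and Pdgfrb (0.14 and -0.09) did not pass. The part of these markers in the results was not tested.

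Summed over all 78 genes, mitochondrial ribosomal protein mRNAs were lower in hypoxia than in normoxia and lower in FIH-KO than in WT cells. The sum was lowest where both applied, though not every member followed it. Their summed level was 3699 and 3671 CPM in WT normoxia, 3019 and 2940 in WT hypoxia, 2978 and 3083 in FIH-KO normoxia, and 2680 and 2613 in FIH-KO hypoxia. Both libraries of WT normoxia lay above all others, both of FIH-KO hypoxia lay below all others, and the ranges of WT hypoxia and FIH-KO normoxia overlapped. As a share of all counts the genes took 0.3693% and 0.3648% in WT normoxia and 0.2635% and 0.2610% in FIH-KO hypoxia. Relative to the WT normoxia mean, the summed level was 80.9% in WT hypoxia, 82.3% in FIH-KO normoxia and 71.8% in FIH-KO hypoxia. In bulk RNA, fewer cells with a transcript and less of the transcript per cell cannot be told apart.

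**Figure D1:**
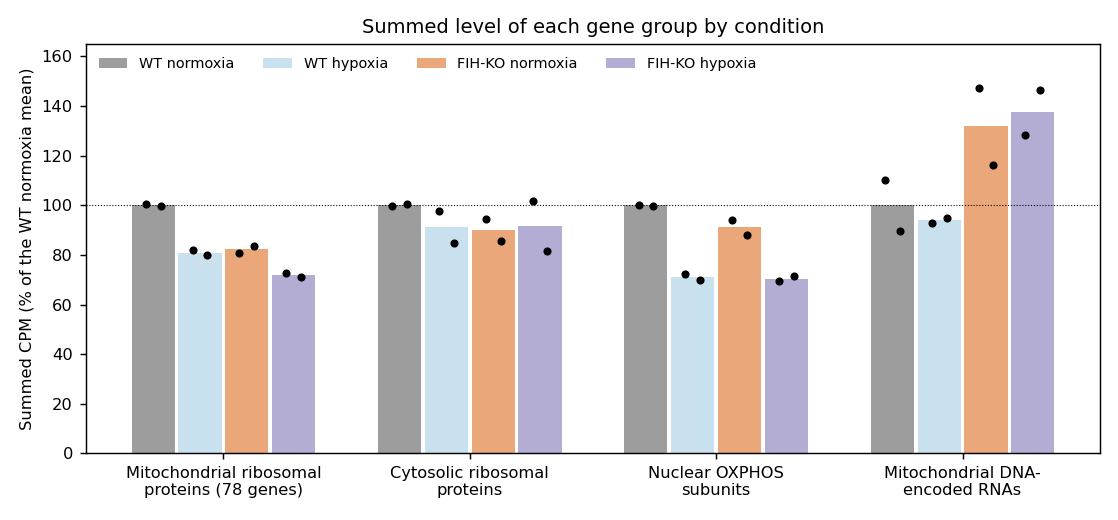
Summed CPM of 4 gene groups, as a percentage of each group's WT normoxia mean; bars are means of 2 libraries and points are single libraries. The mitochondrial ribosomal protein genes stood at 80.9% in WT hypoxia, 82.3% in FIH-KO normoxia and 71.8% in FIH-KO hypoxia, and RNAs from mitochondrial DNA at 132% in FIH-KO normoxia and 137% in FIH-KO hypoxia.

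Gene groups with related work did not all move in this way. The cytosolic ribosomal protein genes, chosen by name pattern (79 genes), stood at 91.4%, 90.1% and 91.7% of WT normoxia in WT hypoxia, FIH-KO normoxia and FIH-KO hypoxia. Of these 3 groups only FIH-KO hypoxia had a library above the WT normoxia libraries. The nuclear genes for subunits of oxidative phosphorylation (OXPHOS), also chosen by name pattern (79 tested), stood at 71.2%, 91.1% and 70.3%. The plot of summed levels by condition sets these groups side by side. Of the OXPHOS genes, 27.8% fell in FIH-KO normoxia, 17.7% in FIH-KO against WT hypoxia and 64.6% in WT hypoxia (edgeR, adjusted p under 0.05). The shares of the mitochondrial ribosomal protein genes were 32.5%, 19.5% and 41.6%. The 13 mitochondrial translation factors, not plotted, moved like them, at 74.7%, 78.9% and 67.0% of WT normoxia in WT hypoxia, FIH-KO normoxia and FIH-KO hypoxia.

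Among the 78 genes, 77 were tested. The exception was Mrpl53 (chromosome 6, 83085887 to 83088572 in GRCm39), with 0 counts in all 8 libraries. The tested members held between 82 and 2296 counts in a library. Per length, with the union of all exons as the length, their mean level over the 8 libraries had a median of 38.2 TPM (reads per exon length, scaled to library size) and ran from 3.25 for Mrpl33 to 179 for Mrpl49. Mrpl28 (178 TPM), Mrpl18 (158), Mrpl12 (154) and Mrps23 (133) followed Mrpl49. Mrps18c (8.19 TPM), Mrps25 (10.9) and Mrpl48 (11.3) were next to Mrpl33 at the low end. This order depended on the length used: with the canonical transcript, a choice made after seeing the data, only 1 of these 5 highest genes (Mrpl28) was again among the 5 highest, and Mrpl33 moved to 34.9 TPM. The level differed by more than 2-fold between the lengths for 13 members. Differences between conditions for 1 gene do not depend on its length.

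Promoter sequence was examined because mitochondrial ribosomal protein genes are textbook targets of nuclear factors that read short motifs near the start site: NRF1, the ETS factor GABP, and YY1. RefSeq promoter windows of 300 bases, 250 before and 50 after the annotated start, were found for 69 of the 78 members (table on GRCm38.p6), and each of the 69 matched GRCm39 once and in full. An ETS motif (CCGGAAG) was present on either strand in 25 of 69 members (36.2%), against 9.12% of all 27025 promoters and 19.1% of the 9749 promoters of tested genes. The YY1 motif (AAGATGGC) was present in 12 members (17.4%), against 2.88% and 5.01%, and the palindromic NRF1 motif in 3 (4.35%), against 0.977% and 2.12%. The E-box read by Myc (CACGTG) was found in 5 members (7.25%), against 7.24% and 10.4%, and the core read by HIF (ACGTG, which also lies within the E-box) in 15 (21.7%), against 19.7% and 26.5%. At least 1 of the ETS, YY1 and NRF1 motifs was present in 6 of 10 matched members that fell in FIH-KO cells in both oxygen conditions. The same held for 14 of 27 that fell in hypoxia in WT cells and for 13 of 27 that passed in no comparison. A match is a description of letters and not evidence of binding. The windows of 4 members are shown, 3 that fell in FIH-KO cells in both oxygen conditions and Mrpl42, which fell in WT hypoxia, with the ETS motif, the NRF1 motif, the YY1 motif or the E-box in capitals. They lie on the minus strand and are written 5′ to 3′, for Mrps22 at chr9:98483683-98483982, for Mrpl32 at chr13:14787573-14787872, for Mrpl37 at chr4:106924014-106924313 and for Mrpl42 at chr10:95337762-95338061 (GRCm39).
Mrps22: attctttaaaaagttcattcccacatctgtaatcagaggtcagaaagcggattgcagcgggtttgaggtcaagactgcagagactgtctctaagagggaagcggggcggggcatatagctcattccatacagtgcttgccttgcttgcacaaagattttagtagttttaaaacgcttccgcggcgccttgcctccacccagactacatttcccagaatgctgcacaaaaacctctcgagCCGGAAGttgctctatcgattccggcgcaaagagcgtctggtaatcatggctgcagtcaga
Mrpl32: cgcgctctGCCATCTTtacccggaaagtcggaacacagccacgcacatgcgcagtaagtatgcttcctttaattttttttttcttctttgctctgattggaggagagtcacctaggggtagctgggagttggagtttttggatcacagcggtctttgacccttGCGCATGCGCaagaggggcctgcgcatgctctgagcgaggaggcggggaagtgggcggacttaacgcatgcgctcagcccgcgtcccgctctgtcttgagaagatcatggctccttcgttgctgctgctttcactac
Mrpl37: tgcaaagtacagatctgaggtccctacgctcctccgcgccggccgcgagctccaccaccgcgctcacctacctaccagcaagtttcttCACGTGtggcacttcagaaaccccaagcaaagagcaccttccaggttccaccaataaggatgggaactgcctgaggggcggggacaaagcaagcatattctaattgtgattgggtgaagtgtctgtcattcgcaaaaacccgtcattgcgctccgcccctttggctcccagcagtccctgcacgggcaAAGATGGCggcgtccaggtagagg
Mrpl42: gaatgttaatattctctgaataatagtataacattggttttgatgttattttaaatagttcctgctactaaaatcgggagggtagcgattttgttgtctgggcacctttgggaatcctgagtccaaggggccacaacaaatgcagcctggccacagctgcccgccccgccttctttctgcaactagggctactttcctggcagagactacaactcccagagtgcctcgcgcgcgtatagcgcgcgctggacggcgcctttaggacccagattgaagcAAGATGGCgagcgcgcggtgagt
The Mrps22 window holds an ETS motif, the Mrpl32 window a YY1 motif on the opposite strand and an NRF1 motif, the Mrpl37 window an E-box and a YY1 motif, and the Mrpl42 window a YY1 motif just after the start.

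The first question was how loss of FIH changed these mRNAs in normoxia. In FIH-KO cells 25 of 77 tested members fell and 0 rose (edgeR's quasi-likelihood test, adjusted p under 0.05), where 28.2% of all tested genes passed, 13.0% lower and 15.2% higher. The median log2 fold change, FIH-KO over WT, was -0.30 over the members and -0.00 over all tested genes, and 64 of 77 members were below 0. The libraries of the 2 genotypes did not overlap for 53 members that were lower and 9 that were higher, against 34.8% and 34.6% of all tested genes. The count of 25 was 11 without WT normoxia 1, 11 without FIH-KO normoxia 1 and 15 without WT normoxia 2, and it ran up to 36 with other libraries left out.

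In hypoxia, 15 members were lower in FIH-KO than in WT cells and 1, Mrpl41, was higher, where 28.0% of all tested genes passed, 13.9% lower and 14.1% higher. The median log2 fold change was -0.16 over the members and -0.03 over all tested genes, and 56 members were below 0. Libraries did not overlap for 41 members that were lower and 12 that were higher, against backgrounds of 32.5% and 29.1%. The share of members that fell was 19.5%, against 32.5% in normoxia; the 2 shares were not tested against each other. The count of 16 became 7 without WT hypoxia 1 and 10 with only the 4 hypoxia libraries in the fit.

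**Figure D2:**
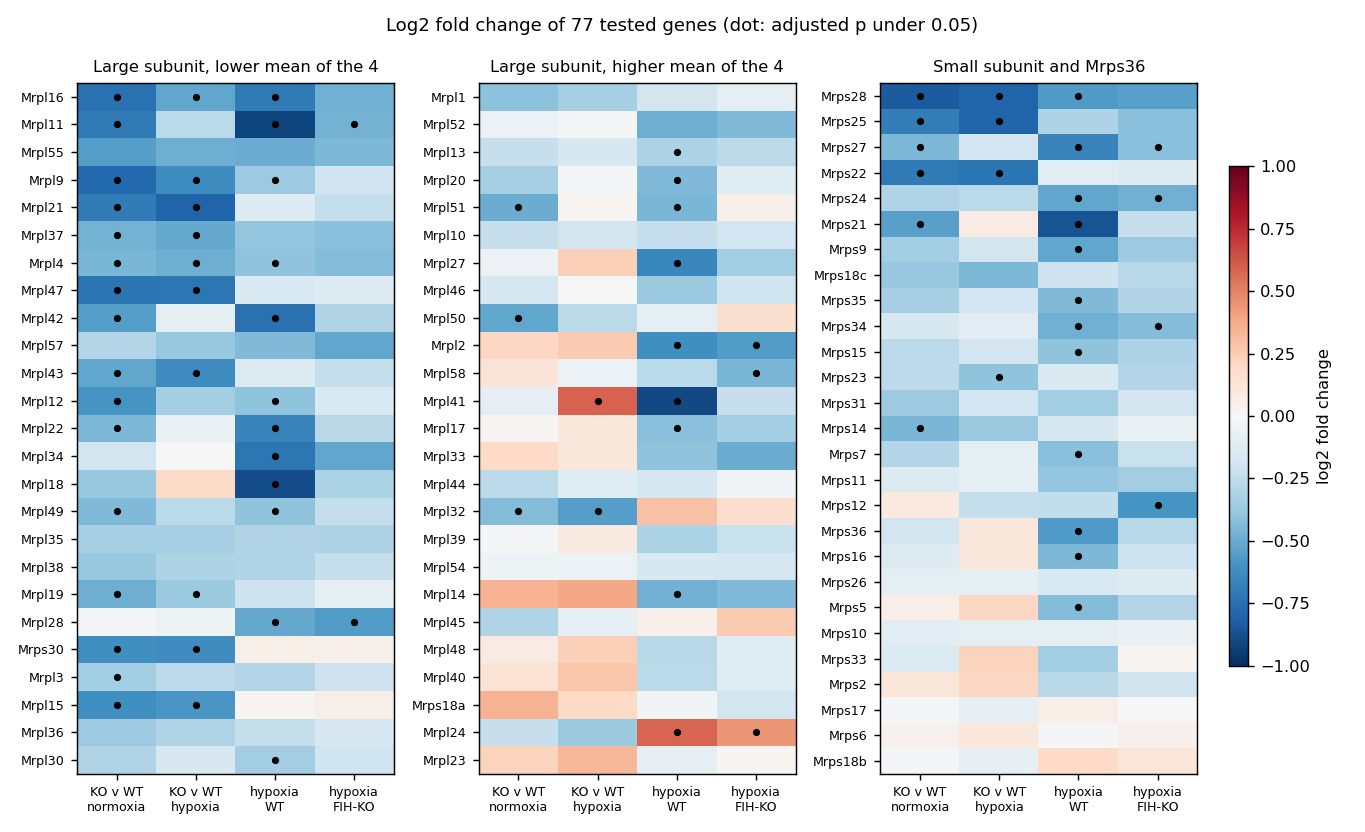
Log2 fold change of the 77 tested members (rows) in the 4 comparisons (columns), ordered within each panel by the mean of the 4; a dot marks an adjusted p under 0.05 (edgeR). Blue, lower expression, prevails in the first column, where 64 of 77 members were below 0, and in the third, where 70 were; Mrpl24 stands out in red in both hypoxia columns.

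The 2 genotype comparisons share no library, and 14 members fell in both, 56.0% of the 25 and 93.3% of the 15. Of all tested genes, 8.68% fell in both. Across the 77 members, which are not independent replicates, the 2 sets of log2 fold changes had a Pearson correlation of 0.80 and the same sign for 65. The 14 were Mrps22, Mrps25, Mrps28, Mrps30, Mrpl4, Mrpl9, Mrpl15, Mrpl16, Mrpl19, Mrpl21, Mrpl32, Mrpl37, Mrpl43 and Mrpl47, a mixture of both subunits and of proteins with and without bacterial counterparts.

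Mrps22 encodes a small-subunit protein found only in mitochondria, mutated in a human disorder of oxidative phosphorylation. It measured 38.8 and 34.6 CPM in WT normoxia, 32.6 and 35.4 in WT hypoxia, 21.4 and 23.3 in FIH-KO normoxia, and 21.2 and 19.7 in FIH-KO hypoxia. All 4 FIH-KO libraries lay below all 4 WT libraries. Between oxygen conditions the libraries overlapped in WT cells and not in FIH-KO cells, and neither difference passed the threshold (adjusted p = 0.57 and 0.58). The log2 fold change between genotypes was -0.71 at 21% O2 (standard error, SE, 0.14; adjusted p = 0.0026) and -0.73 at 1% O2 (SE 0.14, adjusted p = 0.0023). Copb2, which overlaps Mrps22 on the opposite strand with a mean of 3940 counts, had values of -0.19 and -0.02, neither past the threshold. Genes opposite Mrpl47, Mrpl21, Mrpl16 and Mrpl43 did fall, with values given further below.

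Mrps30 encodes a large-subunit protein despite its name and is a paralog of Mrpl37. Its levels were 61.2 and 56.8 CPM in WT normoxia, 61.4 and 61.4 in WT hypoxia, 39.4 and 37.7 in FIH-KO normoxia, and 42.3 and 37.4 in FIH-KO hypoxia. The genotypes were again fully separate. The oxygen conditions overlapped in FIH-KO cells and were just apart in WT cells, with hypoxia higher by 0.06 (adjusted p = 0.75). It fell by 0.61 on the log2 scale at 21% O2 (SE 0.12, adjusted p = 0.0027) and by 0.62 at 1% O2 (SE 0.12, adjusted p = 0.0025). Mrpl37 fell by 0.47 (SE 0.14, adjusted p = 0.025) and by 0.51 (adjusted p = 0.020). The Mrpl37 calls were lost in normoxia without WT normoxia 1 (adjusted p = 0.065), WT normoxia 2 (0.16) or FIH-KO normoxia 1 (0.15), and in hypoxia without WT hypoxia 1 (0.20) or FIH-KO hypoxia 2 (0.079).

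Mrpl15, with a bacterial counterpart in the large subunit, measured 88.7 and 85.0 CPM in WT normoxia, 85.5 and 91.7 in WT hypoxia, 55.7 and 58.1 in FIH-KO normoxia, and 65.5 and 52.9 in FIH-KO hypoxia. Its libraries were separate by genotype and overlapped between oxygen conditions, with a log2 fold change of -0.61 at 21% O2 (SE 0.12, adjusted p = 0.0034) and -0.58 at 1% O2 (SE 0.12, adjusted p = 0.0045). Mrpl21, a large-subunit protein, measured 50.2 and 47.5, 46.4 and 42.7, 27.3 and 32.9, and 24.5 and 26.6 CPM in the same order of groups. FIH-KO over WT it changed by -0.70 at 21% O2 (SE 0.13, adjusted p = 0.0027) and by -0.80 at 1% O2 (SE 0.14, adjusted p = 0.0013). Mrpl47, whose bacterial counterpart lies near the exit of the peptide tunnel, went from 30.1 and 30.8 CPM in WT to 17.7 and 18.9 in FIH-KO cells in normoxia, and from 27.1 and 27.9 to 15.2 and 18.2 in hypoxia. These 5 genes, Mrps22, Mrps30, Mrpl15, Mrpl21 and Mrpl47, were past the threshold in both oxygen conditions under each of the 7 other settings and with any 1 of the 8 libraries left out.

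**Figure D3:**
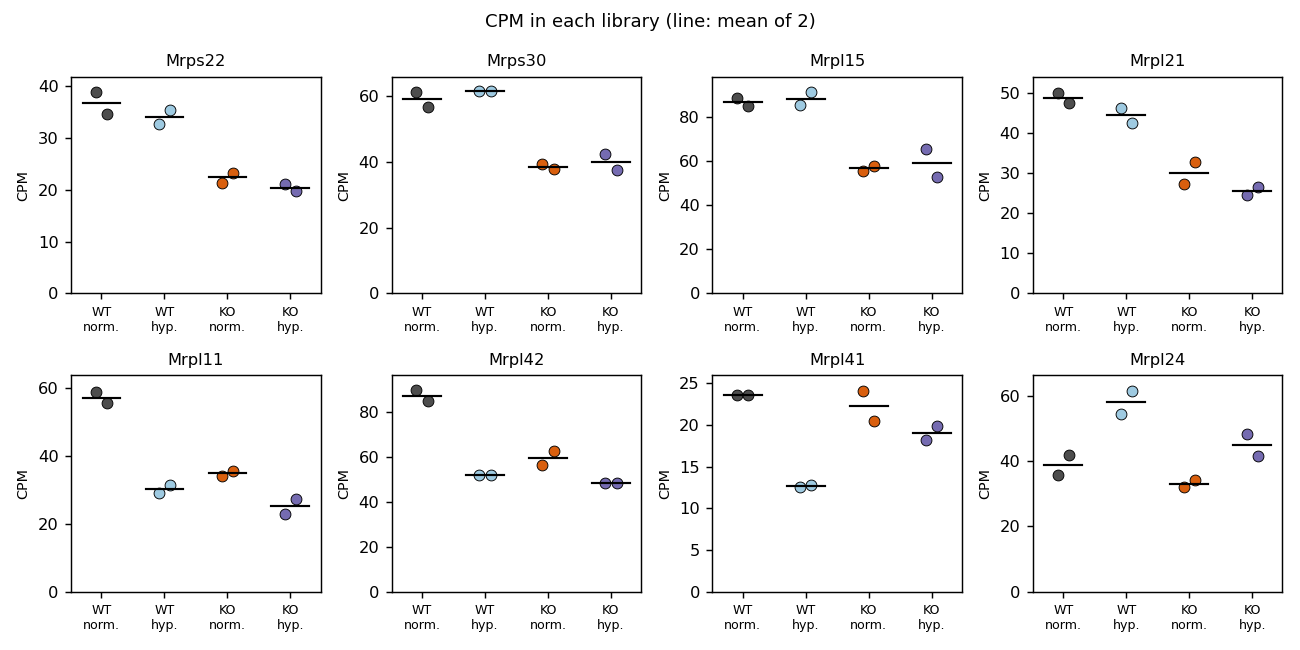
CPM in each library (points) and the mean of 2 (lines) for 8 members, on axes that start at 0. Mrps22, Mrps30, Mrpl15 and Mrpl21 separate by genotype, Mrpl11 and Mrpl42 are highest in WT normoxia, Mrpl41 is lowest in WT hypoxia (12.6 and 12.8 CPM), and Mrpl24 is higher in hypoxia in both genotypes.

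The other 9 of the 14, Mrpl37 among them, lost at least 1 call when a library was left out. Mrpl9, at 77.5 and 73.1 CPM in WT normoxia and 43.4 and 44.2 in FIH-KO normoxia, fell by 0.78 there (adjusted p = 0.00093) and by 0.62 in hypoxia (adjusted p = 0.0039), and the hypoxia value was -0.42 (adjusted p = 0.073) without WT hypoxia 1. Mrps25 fell by 0.69 and 0.80, and its normoxia value was -0.56 (adjusted p = 0.058) without FIH-KO normoxia 1. Mrps28, the least abundant of the 14 in CPM, fell by 0.83 and 0.80, with -0.78 (adjusted p = 0.071) without WT normoxia 1 in normoxia, and -0.57 (0.13) without WT hypoxia 1 and -0.69 (0.059) without FIH-KO hypoxia 2 in hypoxia. Mrpl9, Mrps25 and Mrps28 kept each call in at least 6 of the 8 fits with a library left out.
Mrpl43, which lies 419 kb from Hif1an on chromosome 19, fell by 0.52 and 0.63; in normoxia it was not past the threshold without WT normoxia 1 (adjusted p = 0.085), WT normoxia 2 (0.071) or FIH-KO normoxia 1 (0.12). Mrpl16 fell by 0.75 and 0.52, with an adjusted p of 0.052 in normoxia without FIH-KO normoxia 1. In hypoxia its adjusted p was between 0.083 and 0.21 without WT normoxia 1, WT normoxia 2, WT hypoxia 1, WT hypoxia 2 or FIH-KO hypoxia 1. With only the 4 hypoxia libraries in the fit, Mrpl4, Mrpl16, Mrpl19, Mrpl37 and Mrps28 were not past the threshold there (adjusted p from 0.055 to 0.096). With no filter beyond 1 read, Mrpl16 (adjusted p = 0.057) and Mrpl19 (0.10) lost the hypoxia call and Mrpl32 (0.098) the normoxia call, and DESeq2 did not call Mrpl19 in hypoxia (adjusted p = 0.052).
Mrpl4 fell by 0.46 and 0.49, Mrpl19 by 0.49 and 0.37, and Mrpl32 by 0.43 and 0.55. In normoxia Mrpl4, Mrpl19 and Mrpl32 each lost the call without WT normoxia 1 (adjusted p = 0.050, 0.076 and 0.14), WT normoxia 2 (0.20, 0.054 and 0.11) or FIH-KO normoxia 1 (0.16, 0.095 and 0.069), and Mrpl32 also without FIH-KO normoxia 2 (0.12). In hypoxia Mrpl32 lost it without WT hypoxia 1 (adjusted p = 0.085), Mrpl4 without any 1 of 5 libraries (0.051 to 0.16) and Mrpl19 without any 1 of 6 (0.077 to 0.28).

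Genes of chromosomes 3 and 19 were lower as a whole in FIH-KO cells, and 10 tested members lie there. These chromosomes were singled out because earlier results of these data gave them as lower in FIH-KO cells. Their shares are thus a description and not a test. Of all tested genes, 35.4% on chromosome 3 and 40.3% on chromosome 19 fell in normoxia, against 10.8% on the other chromosomes, and in hypoxia 36.3%, 43.3% and 11.6% were lower. On chromosome 3, 4 of 5 members fell in normoxia and 3 of 5 in hypoxia, and on chromosome 19, 5 of 5 and 3 of 5. On the other chromosomes 16 of 67 members (23.9%) fell in normoxia, with a median of -0.26, and 9 of 67 (13.4%) in hypoxia, with a median of -0.10. The hypoxia share lay near the 11.6% of all tested genes there, and 20 of these 67 members were above 0, with 1 called higher. The 6 tested genes nearest to each of the 14 members were examined in the same comparison. At 21% O2 their median change (log2) was below 0 for 12 of the 14 members and above 0 for 2, Mrpl37 (0.17) and Mrpl19 (0.10). It was lowest for Mrps28 (-0.92), Mrpl16 (-0.67), Mrpl47 (-0.65), Mrpl21 (-0.46) and Mrpl43 (-0.30), which lie on chromosomes 3 and 19. For Mrps25 it was -0.29, for Mrpl32 -0.27, for Mrps22 -0.24, for Mrpl15 -0.18, for Mrpl9 -0.16, for Mrpl4 -0.14 and for Mrps30 -0.04. At 1% O2 the median of the neighbours was below 0 for 10 of the 14 members and above 0 for 4. The 4 were Mrpl37 (0.24), Mrpl19 (0.18), Mrps22 (0.05) and Mrps30 (0.03). The same counts were not made for the other tested members. The part of the neighbourhood in the members' changes was not tested.

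**Figure D4:**
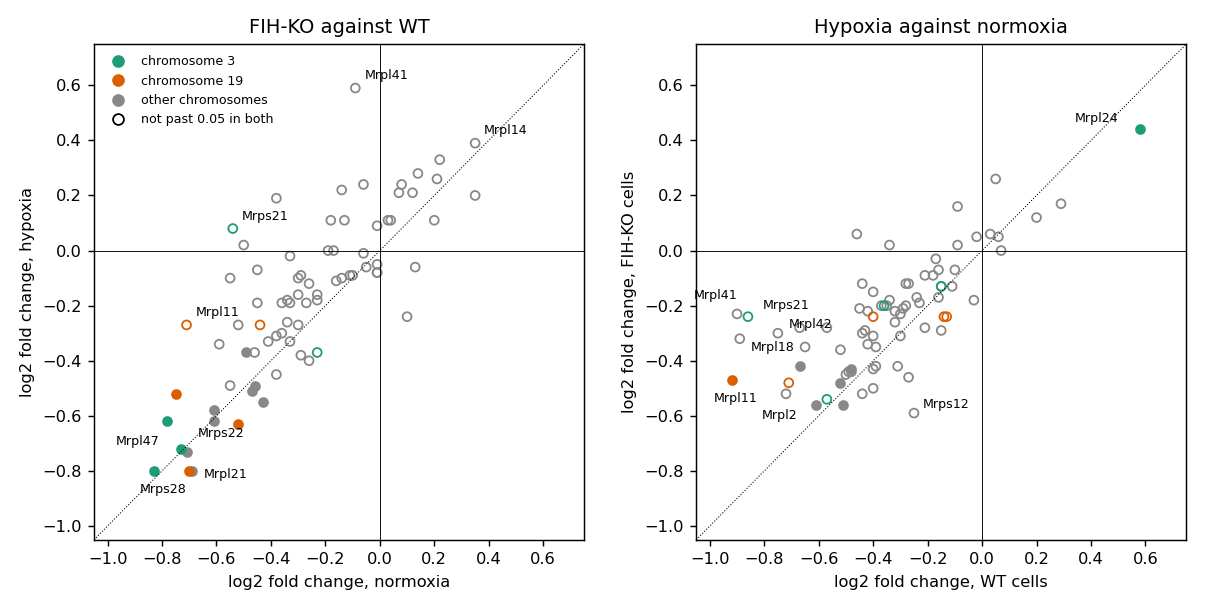
Log2 fold changes of the 77 tested members, FIH-KO against WT in hypoxia against the same in normoxia (left) and hypoxia against normoxia in FIH-KO against the same in WT cells (right); filled points have an adjusted p under 0.05 in both (edgeR) and the dotted line marks equal change. On the left the 14 filled points lie in the lower left, 6 of them on chromosomes 3 and 19; on the right 7 points are filled, with Mrpl24 alone at the upper right.

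The second question was how 1% O2 changed the same mRNAs. In WT cells 32 of 77 members fell in hypoxia and 1, Mrpl24, rose, where 32.4% of all tested genes passed, 15.5% lower and 16.9% higher. The median log2 fold change, hypoxia over normoxia, was -0.34 over the members and -0.00 over all tested genes, and 70 of 77 members were below 0. Libraries did not overlap for 65 members that were lower and 4 that were higher, against 35.6% and 35.2% of all tested genes. The count of 33 was 14 without WT normoxia 1 or WT normoxia 2, 20 without WT hypoxia 1 and 13 without WT hypoxia 2, and up to 44 with an FIH-KO library left out.

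Mrpl11, part of the factor-binding region of the large subunit, measured 58.8 and 55.4 CPM in WT normoxia, 29.0 and 31.5 in WT hypoxia, 34.1 and 35.4 in FIH-KO normoxia, and 22.9 and 27.3 in FIH-KO hypoxia. WT normoxia stood clear of the other groups. Its log2 fold change in WT hypoxia was -0.92 (SE 0.13, adjusted p = 0.00040), and between genotypes it fell by 0.71 in normoxia (adjusted p = 0.0020). Mrpl42, a large-subunit protein found only in mitochondria, measured 89.6 and 84.8, 52.1 and 52.0, 56.3 and 62.5, and 48.3 and 48.5 CPM in the same order. It fell by 0.75 in WT hypoxia (SE 0.11, adjusted p = 0.00048) and by 0.55 in FIH-KO normoxia against WT normoxia (adjusted p = 0.0032). Its promoter is the last of the 4 printed above.

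Mrpl41, a large-subunit protein found only in mitochondria, followed another course. It measured 23.6 and 23.6 CPM in WT normoxia, 12.6 and 12.8 in WT hypoxia, 24.1 and 20.4 in FIH-KO normoxia, and 18.2 and 19.9 in FIH-KO hypoxia. Only the WT hypoxia libraries were low, and the other 3 groups lay together at 18.2 CPM or more. It fell by 0.90 in WT hypoxia (SE 0.15, adjusted p = 0.0011) and its value in FIH-KO hypoxia was -0.23 (adjusted p = 0.34). In hypoxia it was higher in FIH-KO than in WT cells by 0.59 (SE 0.15, adjusted p = 0.015), a call lost without WT hypoxia 1 (adjusted p = 0.065), WT hypoxia 2 (0.060) or FIH-KO hypoxia 2 (0.055). For Mrpl41 the FIH-KO effect at 1% O2 minus that at 21% O2 was 0.68 (SE 0.21, adjusted p = 0.55). Pnpla7 overlaps Mrpl41 on the opposite strand with a mean of 372.9 counts. It rose in FIH-KO cells by 1.1 at 21% O2 (adjusted p = 0.00022) and by 0.77 at 1% O2 (adjusted p = 0.0023). Dph7, also opposite, passed in neither (-0.03 and -0.25). The part of this overlap in the Mrpl41 values was not tested.

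Mrps21, the small-subunit counterpart of a bacterial protein of the platform, went from 29.5 and 26.1 CPM in WT normoxia to 15.1 and 15.6 in WT hypoxia, a log2 fold change of -0.86 (SE 0.15, adjusted p = 0.0013). In FIH-KO cells it measured 20.2 and 18.1 CPM in normoxia and 16.3 and 16.1 in hypoxia. Mrpl18 went from 97.5 and 91.9 to 46.8 and 55.2 CPM in WT cells, a log2 fold change of -0.89 (SE 0.17, adjusted p = 0.0018). Mrpl18 overlaps Tcp1 on the opposite strand, which held a mean of 12550 counts and changed by -0.32 in the same comparison. Whether the counting used strand is not given in the sources used here, so reads of such pairs may not be told apart. A tested gene lies on the opposite strand of 36 of the 77 tested members and of 9 of the 14 that fell in FIH-KO cells in both oxygen conditions. A tested gene also overlaps 7 members on the same strand, where strand would not tell reads apart. Among the 14 this held for Mrps28, whose overlapping pseudogene Gm15466 passed in neither genotype comparison (-0.47 and -0.40). Between genotypes Actl6a and Ndufb5, opposite Mrpl47, fell at 21% and 1% O2 (-0.83 and -0.50, -0.50 and -0.47). Stx3, opposite Mrpl16 (-0.78 and -0.97), and Twnk, opposite Mrpl43 (-0.71 and -0.88), fell too. At 1% O2 only, Ighmbp2, opposite Mrpl21 (-0.73), and Sema4g, opposite Mrpl43 (-1.25), fell. Copb2, Gcfc2, Cyb5rl, S1pr2 and Nr2c2, opposite Mrps22, Mrpl19, Mrpl37, Mrpl4 and Mrps25, passed in neither condition.

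In FIH-KO cells 8 members fell in hypoxia and 1, Mrpl24, rose, where 16.8% of all tested genes passed, 8.0% lower and 8.84% higher. The median was -0.23 over the members and -0.03 over all tested genes, and 66 of 77 members were below 0. Libraries did not overlap for 49 lower and 4 higher members, against 29.3% and 25.9%. The 8 were Mrps12, Mrpl2, Mrpl28, Mrps24, Mrpl11, Mrpl58, Mrps34 and Mrps27. Mrpl11 lost this call without any 1 of 6 libraries (adjusted p from 0.055 to 0.20), Mrps12 without any 1 of 6 (0.054 to 0.15) and Mrps24 without any 1 of 7 (0.063 to 0.20). The Mrps24 call was kept in 1 of 7 other settings, RLE scaling, and its adjusted p was 0.051 to 0.16 in the other 6, DESeq2 (0.055) and the replicate block (0.054) included. The count of 9 was 2 without WT normoxia 1, WT normoxia 2, WT hypoxia 1 or FIH-KO normoxia 1, 5 without WT hypoxia 2, 1 without FIH-KO normoxia 2, and between 1 and 7 over all 8 libraries left out. With only the 4 FIH-KO libraries in the fit it was 2, and Mrpl11 (adjusted p = 0.12), Mrps12 (0.099) and Mrpl24 (0.086) lost the call.

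Of the 32 and 8 members that fell in WT and in FIH-KO cells, 6 were shared (18.8% and 75%): Mrpl2, Mrpl11, Mrpl28, Mrps27, Mrps34 and, by the call that most settings did not keep, Mrps24. Of all tested genes, 6.33% fell in both and 7.92% rose in both. Urgcp, which overlaps Mrps24 on the same strand with a mean of 1005 counts, also fell, by 0.50 in WT (adjusted p = 0.0076) and by 0.47 in FIH-KO cells (adjusted p = 0.020). Nme3, on the same strand as Mrps34 with a mean of 69.38 counts, had -0.93 (adjusted p = 0.019) and -0.68 (adjusted p = 0.091). The 2 comparisons share no library, and across the 77 members their log2 fold changes had a Pearson correlation of 0.718 and the same sign for 71. Mrpl2, which lines the catalytic center, measured 53.9 and 55.9 CPM in WT normoxia, 37.7 and 34.3 in WT hypoxia, 64.3 and 62.7 in FIH-KO normoxia, and 43.2 and 43 in FIH-KO hypoxia. The hypoxia libraries were lower in each genotype, by 0.61 in WT (SE 0.12, adjusted p = 0.0021) and by 0.56 in FIH-KO cells (SE 0.11, adjusted p = 0.0064). Mrpl28 fell by 0.51 (adjusted p = 0.0047) and by 0.56 (adjusted p = 0.0057), and the second value was -0.46 (adjusted p = 0.051) without FIH-KO normoxia 2. Neither Mrpl2 (0.21 in normoxia) nor Mrpl28 (-0.01) was past the threshold between genotypes.

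Mrpl24, a large-subunit protein that in bacteria starts subunit assembly, was the only member that rose in hypoxia. It measured 35.8 and 41.7 CPM in WT normoxia, 54.3 and 61.5 in WT hypoxia, 32.0 and 34.1 in FIH-KO normoxia, and 48.2 and 41.4 in FIH-KO hypoxia. Hypoxia and normoxia were separate within each genotype. It rose by 0.58 in WT (SE 0.14, adjusted p = 0.0071) and by 0.44 in FIH-KO cells (SE 0.14, adjusted p = 0.047). The WT call was lost without WT normoxia 1 (0.43, adjusted p = 0.12) or WT hypoxia 2 (0.48, adjusted p = 0.065), and the FIH-KO call without any library but FIH-KO hypoxia 2, down to 0.35 (adjusted p = 0.18). Rrnad1, which overlaps Mrpl24 on the opposite strand with a mean of 221 counts, changed by 0.69 (adjusted p = 0.011) and 0.41 (adjusted p = 0.16).

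The effect of FIH-KO was not found to differ between the oxygen conditions for any member. None of the 77 passed the threshold by edgeR and none by DESeq2, and 6 had an unadjusted p under 0.05 (Mrpl11, Mrpl18, Mrpl41, Mrpl42, Mrpl51 and Mrps21), with a smallest adjusted p of 0.55. Over all tested genes 0 passed and 6.64% had an unadjusted p under 0.05. The median of this difference was 0.08 over the members.

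By place in the ribosome, 19 of 50 large-subunit members and 6 of 26 small-subunit members fell in FIH-KO cells in normoxia (38.0% and 23.1%). In hypoxia between genotypes 11 and 4 fell (22.0% and 15.4%). Of all tested genes, 13.0% fell in normoxia and 13.9% in hypoxia. In WT hypoxia 20 and 11 fell (40.0% and 42.3%), where 15.5% of all tested genes fell. In FIH-KO hypoxia 4 and 4 fell (8.0% and 15.4%), beside 8.0% of all tested genes, so the large-subunit share was that of all tested genes. The medians of the subunits were alike, at -0.33 and -0.27 in normoxia between genotypes and -0.34 and -0.34 in WT hypoxia. By origin, 15 of 46 members with a bacterial counterpart (32.6%) and 10 of 30 found only in mitochondria (33.3%) fell in FIH-KO cells in normoxia. In WT hypoxia 24 of 46 (52.2%) and 7 of 30 (23.3%) fell, with medians of -0.39 and -0.31. None of these splits was tested.

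Some members have special roles. Mrpl12, of the flexible stalk, fell by 0.59 in FIH-KO normoxia (adjusted p = 0.0086) and by 0.40 in WT hypoxia (adjusted p = 0.048). Mrpl58, a peptidyl-tRNA hydrolase built into the large subunit, fell by 0.46 in FIH-KO hypoxia only (adjusted p = 0.041), with -0.27 in WT cells (adjusted p = 0.16); the 2 values were not tested against each other. Mrpl44, with an RNase III fold, and Mrpl45, at the membrane face of the tunnel exit, passed in no comparison.
The paralogs Mrps18a, Mrps18b and Mrps18c, which occupy different sites, also passed in none, with log2 fold changes of 0.35, -0.01 and -0.38 between genotypes in normoxia. Mrps12, of the decoding site, fell by 0.59 in FIH-KO hypoxia (adjusted p = 0.035), and its overlapping neighbour Sars2, for the mitochondrial seryl-tRNA synthetase, had -0.43 (adjusted p = 0.12). Mrps36, not a ribosomal subunit, fell by 0.57 in WT hypoxia (adjusted p = 0.032). In all, 29 of the 77 members fell in none of the 4 comparisons.

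Other parts of the mitochondrial translation system were measured in the same libraries. Of 5 mitochondrial ribosomal proteins with other names, 3 fell in FIH-KO cells in both oxygen conditions, beside 8.68% of all tested genes. Dap3, a GTP-binding small-subunit protein on chromosome 3, measured 107 and 101 CPM in WT normoxia, 105 and 100 in WT hypoxia, 63.5 and 62.3 in FIH-KO normoxia, and 62.1 and 60.2 in FIH-KO hypoxia. Its log2 fold change was -0.73 (adjusted p = 0.00041) and -0.75 (adjusted p = 0.00040). Ptcd3, a pentatricopeptide-repeat protein of the small subunit, fell by 0.77 and 0.78, and Chchd1 by 0.63 and 0.47. The summed level of the 5 was 98.9% of WT normoxia in WT hypoxia, and 70.1% and 67.6% in FIH-KO normoxia and hypoxia.

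Of 25 genes for assembly of the mitochondrial ribosome and modification of its rRNA, 6 fell and 2 rose in FIH-KO normoxia, 4 fell and 0 rose in FIH-KO against WT hypoxia, and medians were -0.06 in both. Gtpbp10, a GTPase of large-subunit maturation, fell by 1.04 (adjusted p = 0.00088) and by 1.15 (adjusted p = 0.00053), Noa1 by 0.69 and 0.72, and the RNA helicase Ddx28 by 0.80 and 0.70. In hypoxia Mrm2, an rRNA methyltransferase, fell by 0.92 in WT and by 0.76 in FIH-KO cells. Of 13 translation factors, 3 fell in FIH-KO normoxia (23.1%) and 1 in FIH-KO against WT hypoxia (7.69%). In hypoxia 4 fell in WT cells (30.8%) and 1 in FIH-KO cells (7.69%). The elongation factor Gfm1 fell by 0.60 in FIH-KO normoxia and by 0.82 in WT hypoxia, and the elongation factor Tufm by 0.50 and 0.60. The membrane insertase Oxa1l fell in hypoxia by 0.62 in WT and by 0.49 in FIH-KO cells.
Of 17 mitochondrial aminoacyl-tRNA synthetases, 4 fell in FIH-KO normoxia (23.5%) and 3 in FIH-KO against WT hypoxia (17.6%), where 1 rose. The largest change was that of the methionyl enzyme Mars2, by -1.14 and -1.26. Of 16 genes for mitochondrial transcription and RNA handling, 3 fell (18.8%) and 1 rose in FIH-KO normoxia, and 1 fell (6.25%) in hypoxia between genotypes. In FIH-KO against WT hypoxia the shares that fell (16.0%, 7.69%, 17.6% and 6.25%) thus lay near or below the 13.9% of all tested genes.

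The RNAs that this ribosome contains or translates, encoded in mitochondrial DNA, did not fall with its proteins in FIH-KO cells. Of 15 measured, 3 rose and 0 fell in FIH-KO normoxia, with a median of 0.35. In FIH-KO against WT hypoxia 5 rose and 0 fell, with a median of 0.46. Over all tested genes 15.2% and 14.1% rose, with medians of -0.00 and -0.03. The respiratory subunit mRNA mt-Nd2 measured 1750 and 1640 CPM in WT normoxia, 1160 and 1220 in WT hypoxia, 3220 and 2750 in FIH-KO normoxia, and 2340 and 3050 in FIH-KO hypoxia. It rose in FIH-KO cells by 0.82 (adjusted p = 0.0018) and 1.18 (adjusted p = 0.00020). In WT hypoxia 4 fell (26.7%) and 1 rose, where 15.5% of all tested genes fell and 16.9% rose. The 1 that rose was the small rRNA mt-Rnr1, by 0.88 (adjusted p = 0.014). The large rRNA mt-Rnr2 passed in none of the 4 comparisons. The libraries were poly(A)-selected, so these levels may not stand for total rRNA.

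Of 11 nuclear regulators of mitochondrial genes, 5 fell and 0 rose in FIH-KO normoxia, and 4 fell and 0 rose in FIH-KO against WT hypoxia. The falls were 45.5% and 36.4%, beside 13.0% and 13.9% of all tested genes. Myc, known to induce ribosome and mitochondrial genes, measured 252 and 204 CPM in WT normoxia, 1170 and 750 in WT hypoxia, 92.9 and 129 in FIH-KO normoxia, and 467 and 228 in FIH-KO hypoxia. Myc fell in FIH-KO cells (-1.04, adjusted p = 0.020, and -1.47, adjusted p = 0.0032) and rose in WT hypoxia by 2.07 (adjusted p = 0.00038). The coactivator Pprc1 fell by 0.86 (adjusted p = 0.0053) and 0.99 (adjusted p = 0.0024) in FIH-KO cells. Ppargc1a was at 0.341 to 0.835 CPM in WT libraries and at 0 in each FIH-KO library. Nrf1 (-0.40, adjusted p = 0.051), Gabpa (-0.02) and Yy1 (-0.10), whose motifs are counted above, were not past the threshold in FIH-KO normoxia.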

How the data were processed

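Groups were taken from the sample labels. The deposited values are raw counts per gene: per the paper's methods the authors demultiplexed with bcl2fastq, aligned with STAR to GRCm39 and counted with HTSeq, and the deposited counts were not normalized. The submitters' processing notes also list GRCm38 and mm10; the annotation release, versions and strand setting are not given in the sources used here. The tests ran in edgeR 4.0.16 under R 4.3.3 (low counts removed with filterByExpr, TMM scaling, a quasi-likelihood fit to all 8 libraries with 4 group means, Benjamini-Hochberg adjustment over 13933 genes, threshold 0.05). The common biological coefficient of variation was 11.7%. CPM are TMM-scaled. Positions and lengths came from GENCODE on GRCm39, in which 52610 identifiers and all 78 members were found.

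The members, all lists and the split by chromosome were chosen with earlier results of these data known. Genes were named by a rule: members called in both genotype comparisons, the 5 largest rises and falls called in each comparison, the 5 highest and lowest TPM, untested members and members with set roles; of each other list at most 4. Genes printed outside it to set a value beside a member, such as overlapping genes and Nrf1, Gabpa and Yy1, were chosen after their values were seen. Replicate libraries were not copies of each other (chi-square per degree of freedom 5.66 to 23.3). The test scripts were first tested on simulated data, in which far fewer genes changed than passed here. There edgeR called 13 of 98 genes simulated at an absolute log2 fold change of 0.5 and 72 of 98 at 1. DESeq2 called 17 and 66. Alternatives were DESeq2 1.42.0, RLE and upper-quartile scaling, 2 filters, only the 4 libraries compared, the replicate number as a term, and each library left out. Tables were handled with pandas 2.3.3 in Python 3.11.15.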

Additional observations from a re-analysis of the deposited data

Results flagged for a closer look

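For Mrps21 and Mrps33 every FIH-KO library was below every WT library in normoxia and above every WT library in hypoxia. Of all tested genes, 34.8% were separate and lower in normoxia, and 29.1% were separate and higher in hypoxia. The share that did both was not counted, so the pattern is not shown to be unusual. For Mrps21 the FIH-KO libraries had 20.2 and 18.1 CPM and the WT libraries 29.5 and 26.1 at 21% O2, and 16.3 and 16.1 beside 15.1 and 15.6 at 1% O2. For Mrps33 the FIH-KO libraries had 22.6 and 21.2 CPM and the WT libraries 25.1 and 23.1 at 21% O2. At 1% O2 they had 20.2 and 24.1 and the WT libraries 20.2 and 17.7, so 1 pair was apart by less than the rounding shown. The difference of the FIH-KO effect, hypoxia minus normoxia, was 0.61 (log2) for Mrps21 (adjusted p = 0.60, edgeR) and 0.36 for Mrps33 (adjusted p = 0.80), so neither passed the threshold.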

How the results depend on the processing

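The median over the members kept its direction under each alternative run; for the difference of the FIH-KO effect, which needs all 8 libraries, the fit to 4 libraries could not be made. With only the 4 libraries of a comparison the count of members called was 35 (FIH-KO normoxia), 10 (FIH-KO against WT hypoxia), 42 (WT hypoxia) and 2 (FIH-KO hypoxia), against 25, 16, 33 and 9; in FIH-KO normoxia 2 of the 35 were higher. With no filter beyond 1 read the count in FIH-KO hypoxia was 5. DESeq2 called 23, 15, 31 and 7. With each library left out the counts ran from 11 to 36, 7 to 17, 13 to 44 and 1 to 7, and for the difference of the FIH-KO effect they were 0 to 0. A fit with a library left out has 1 library in a group, assumed to vary like the others. Medians then ran from -0.33 to -0.30, -0.17 to -0.11, -0.40 to -0.31 and -0.24 to -0.20, and from 0.06 to 0.18 for the difference. For Hif1an the range was -1.29 to -1.17 at 21% O2 and -0.93 to -0.73 at 1% O2. The tally that follows covers only calls for which a member was named by its change. Other printed calls, such as those of Mrpl12, Mrpl58 and Mrps36, are not in it. Of 42 calls of named members, 32 were kept under all 7 other settings, 20 also with any library left out, and 0 reversed.

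Replicate numbers are shared between groups and were not used as pairs in the main fit. Correlations of same-numbered deviations ran from -0.0104 to 0.193 over 6 pairs of groups, highest for WT hypoxia with FIH-KO hypoxia. With the replicate block the counts were 24, 16, 32 and 6, against 25, 16, 33 and 9. Beyond this block a pairing was not tested. With 2 libraries a group and as few as 82 counts for a member, a member that was not called is not shown to be unchanged.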
